A study of Mus musculus with 6 samples.

Results

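The hypoxia pathway was followed through 10 genes in nuclei of the mouse left ventricle: P4ha1 and P4ha2, Stc1, the hypoxia-inducible factor genes Hif1a, Epas1 and Hif3a, the oxygen sensors Egln1 and Egln3, and the target genes Bnip3 and Ankrd37. They were taken by symbol from the 33696 genes of the count tables, and each symbol stood for a single row. The group was chosen by earlier results of the same data and is named for P4ha1 and Stc1, and the sources used here do not say in which comparison those 2 genes stood out. The differences of those 2 are therefore given as a description, with a standard error (SE) and without a p-value, and the test was reported for the other 8 genes.

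Single-nucleus RNA sequencing had been performed in 3 groups of 12-week-old male mice, before hypertrophy of the left ventricle developed, and each group gave 2 libraries. The WT-CD group consisted of wild-type littermates on control diet. R403Q-CD mice carried 1 copy of the R403Q mutation in the cardiac myosin heavy chain, a model of hypertrophic cardiomyopathy, and ate the control diet. R403Q-EMPA mice carried the same mutation and ate control diet with empagliflozin (EMPA), an inhibitor of the sodium-glucose cotransporter SGLT2, at 0.15 mg per g of diet, about 15 mg/kg body weight. The diets were started at 9 to 10 weeks of age. No wild-type group on EMPA was analysed here, so an effect of EMPA without the mutation was not measured. Comparison of R403Q-CD with WT-CD addressed the mutation, and R403Q-EMPA with R403Q-CD the treatment. Comparison of R403Q-EMPA with WT-CD addressed treated against healthy hearts, and it shares libraries with both others. Nothing in the labels says that the 2 libraries of a group came from separate animals, so p-values measure the spread between libraries, which may be technical.

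Cells read oxygen through the EGLN enzymes, which use it to hydroxylate the alpha subunits of hypoxia-inducible factors (HIF) and so mark them for degradation. When oxygen is short the alpha subunits last longer, pair with ARNT and bind short DNA elements beside target genes for glycolysis, mitochondrial turnover, vessel growth and collagen processing. This control acts mainly on protein, so the mRNA of an alpha subunit is a poor measure of HIF activity. Several targets, among them Egln3, Bnip3, Ankrd37, P4ha1 and P4ha2, are commonly read as a record of it. Both P4ha genes also answer to other signals, and they encode the catalytic subunits of collagen prolyl 4-hydroxylase, which stabilises the collagen helix in the endoplasmic reticulum.

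The core of the HIF-binding element reads ACGTG or GCGTG. Promoter sequence was found for 8 of the 10 genes in the RefSeq table of mouse assembly GRCm38.p6, matched by symbol, and Stc1 and Epas1 were not among them. The 250 bases upstream of the start are shown for the 4 genes on which most results below turn, namely both collagen prolyl 4-hydroxylase subunits, the sensor Egln3 and the mitochondrial target Bnip3. Capitals mark ACGTG and GCGTG on either strand, the other strand being read as CACGT and CACGC, and a CACGTG counts on both strands. Each line runs 5′ to 3′ on the strand of the gene.
P4ha1: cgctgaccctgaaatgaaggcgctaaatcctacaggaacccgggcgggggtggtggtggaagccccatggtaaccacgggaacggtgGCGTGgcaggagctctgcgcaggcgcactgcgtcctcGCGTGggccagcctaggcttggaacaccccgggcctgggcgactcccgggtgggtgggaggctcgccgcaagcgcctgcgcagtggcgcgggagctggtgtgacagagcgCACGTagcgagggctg
P4ha2: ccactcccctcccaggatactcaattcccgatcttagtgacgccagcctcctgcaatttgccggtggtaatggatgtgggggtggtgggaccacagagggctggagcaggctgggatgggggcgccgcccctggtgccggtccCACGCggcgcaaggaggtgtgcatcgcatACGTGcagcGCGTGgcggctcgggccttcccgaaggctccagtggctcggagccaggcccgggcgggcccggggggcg
Egln3: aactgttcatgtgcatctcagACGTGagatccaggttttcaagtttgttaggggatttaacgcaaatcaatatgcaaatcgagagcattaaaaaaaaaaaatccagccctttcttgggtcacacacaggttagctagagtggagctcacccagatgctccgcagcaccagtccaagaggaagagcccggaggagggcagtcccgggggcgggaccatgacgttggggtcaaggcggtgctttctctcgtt
Bnip3: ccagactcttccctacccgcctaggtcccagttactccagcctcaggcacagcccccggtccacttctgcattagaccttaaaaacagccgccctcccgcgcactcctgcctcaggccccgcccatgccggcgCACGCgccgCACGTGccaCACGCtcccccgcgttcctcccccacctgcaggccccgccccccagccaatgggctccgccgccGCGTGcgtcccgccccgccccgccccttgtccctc
The P4ha1 window lies at chr10:59323046-59323295 on the plus strand and holds ACGTG 1 time and GCGTG 2 times. That of P4ha2 lies at chr11:54100674-54100923 on the plus strand, with the same counts of 1 and 2. The Egln3 window, chr12:54203875-54204124 on the minus strand, holds a single ACGTG. The Bnip3 window, chr7:138909507-138909756 on the minus strand, holds ACGTG 2 times, as a CACGTG, and GCGTG 3 times. At least 1 of these cores stood in all 8 windows, which held 50.8% to 86% G and C bases. Of 32851 mouse windows of 250 bases, not matched for base content, 38.6% held at least 1 (ACGTG 16.6%, GCGTG 28.2%). The genes were picked as hypoxia pathway genes, so these shares test nothing. Such a match is a description of letters and not evidence of a bound site. The counts below were mapped to another assembly, GRCm39, and these positions were not carried over to it.

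The 6 libraries held 69249 barcodes with 31787308 to 45397128 UMIs (unique molecular identifiers, counted molecules) each, and 46005 nuclei were kept. Median depth of the kept nuclei ran from 2663 UMIs in R403Q-EMPA replicate 2 and 2760.5 in WT-CD replicate 1 to 4065 in R403Q-CD replicate 2. R403Q-EMPA replicate 2 also had the highest median mitochondrial share of its barcodes, 4.18% against 2.54% to 3.31% in the other libraries. Pairs of libraries shared 23 to 56 barcodes. Clustering gave 10 classes large enough to test, called "-like" after their marker genes: cardiomyocyte (6938 nuclei), fibroblast (14149), endothelial (12774), endocardial (2935), lymphatic endothelial (1109), pericyte (4644), smooth muscle (233), myeloid (2405), lymphoid (472) and epicardial (244). Levels are counts per 1000000 UMIs (CPM) of a class in a library after TMM scaling, and log2 differences come from the edgeR fit. In summed nuclei, fewer nuclei with a transcript and fewer transcripts per nucleus cannot be told apart.

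P4ha1 (ENSMUSG00000019916) was higher in both R403Q-EMPA libraries than in all 4 libraries on control diet in each of the 10 classes. No overlap of this kind, in this direction, occurred in 11.9% of all gene and class pairs. In cardiomyocyte-like nuclei the WT-CD libraries stood at 41.1 and 41.2 CPM, the R403Q-CD libraries at 48.9 and 54.1 CPM, and the R403Q-EMPA libraries at 166 and 164 CPM. In endothelial-like nuclei the P4ha1 levels were 125 and 113 CPM in WT-CD hearts, 145 and 128 CPM in R403Q-CD hearts and 469 and 513 CPM in R403Q-EMPA hearts. In fibroblast-like nuclei, the main collagen-producing class, they were 212 and 185 CPM, 224 and 216 CPM, and 445 and 506 CPM in the same order of groups. P4ha1 was chosen with earlier results of these data, so this separation is a description and tests nothing. The classes, and the clusters within them, share the same 6 libraries. The log2 difference between R403Q-EMPA and R403Q-CD was 1.68 (SE 0.14) in cardiomyocyte-like, 1.85 (SE 0.14) in endothelial-like and 1.11 (SE 0.14) in fibroblast-like nuclei.

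In the other vascular classes P4ha1 was also highest in both R403Q-EMPA libraries, while R403Q-CD means were above those of WT-CD in pericyte-like and lymphatic endothelial-like nuclei and below them in endocardial-like and smooth muscle-like nuclei. Pericyte-like nuclei, with the highest mean over the 6 libraries (346 CPM), held 195 and 180, 226 and 203, and 599 and 673 CPM. Lymphatic endothelial-like nuclei held 137 and 146, 174 and 153, and 439 and 392 CPM. Endocardial-like nuclei, the inner lining of the ventricle, held 136 and 127, 114 and 134, and 348 and 321 CPM. Smooth muscle-like nuclei, the smallest class, spread more, with 120 and 112, 107 and 99.8, and 401 and 295 CPM. Log2 differences of P4ha1 between R403Q-EMPA and R403Q-CD were 1.57 (SE 0.15) in pericyte-like, 1.36 (SE 0.20) in lymphatic endothelial-like, 1.42 (SE 0.16) in endocardial-like and 1.79 (SE 0.39) in smooth muscle-like nuclei.

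The smallest P4ha1 differences lay in the immune and epicardial classes. Myeloid-like nuclei held 180 and 201 CPM in WT-CD hearts, 168 and 151 CPM in R403Q-CD hearts and 249 and 282 CPM in R403Q-EMPA hearts. Lymphoid-like nuclei held 119 and 92.0, 141 and 154, and 273 and 204 CPM. Epicardial-like nuclei, a mesothelial layer, held 256 and 249, 183 and 254, and 347 and 380 CPM. Log2 differences of P4ha1 between R403Q-EMPA and R403Q-CD were 0.73 (SE 0.16), 0.70 (SE 0.32) and 0.69 (SE 0.31) in these 3 classes. Over all 10 classes the treated mean was 1.62 to 3.6 times that of R403Q-CD and 1.39 to 4.12 times that of WT-CD.

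**Figure D1:**
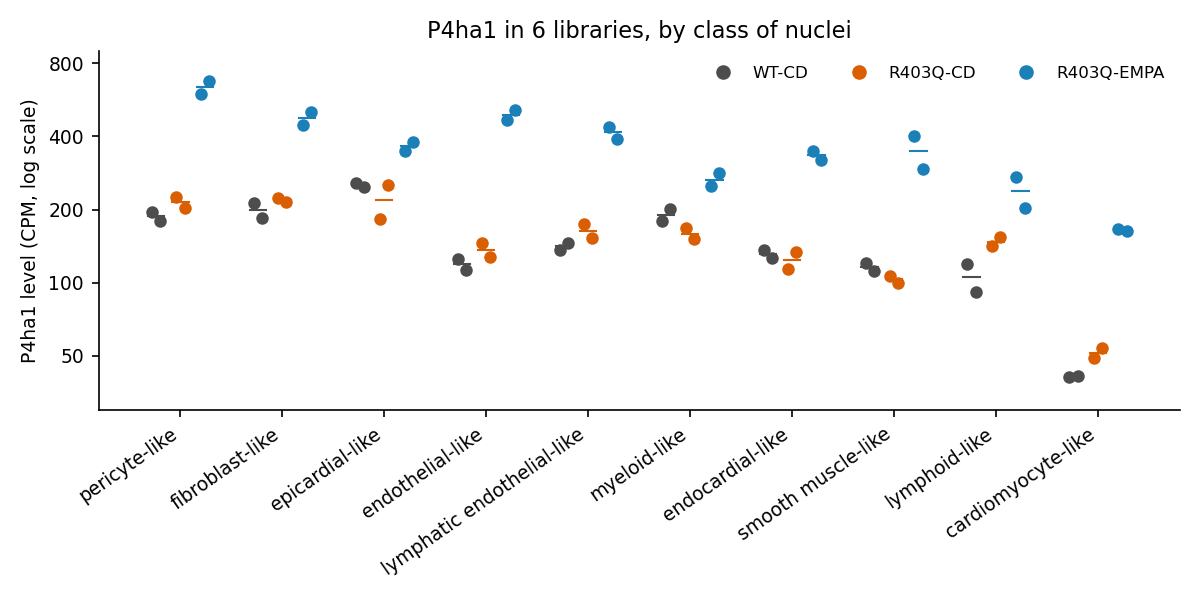
P4ha1 level (CPM, log scale) by class of nuclei, 1 dot per library and a line for the mean of the 2 libraries of a group. In each of the 10 classes both R403Q-EMPA dots lie above all 4 dots of WT-CD and R403Q-CD, from cardiomyocyte-like nuclei (164 and 166 CPM) to pericyte-like nuclei (599 and 673 CPM).

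On control diet, P4ha1 in R403Q hearts was nearer the wild-type level than in treated hearts. The R403Q-CD and WT-CD libraries overlapped only in endocardial-like and epicardial-like nuclei. R403Q-CD libraries were lower in smooth muscle-like and myeloid-like nuclei and higher in the remaining classes. How often such separation occurred over all genes was not counted. Log2 differences from WT-CD ran from -0.26 to 0.48 over the 10 classes, and R403Q-CD means were 0.835 to 1.4 times those of WT-CD. Between classes, the order of mean levels was pericyte-like, fibroblast-like, epicardial-like, endothelial-like, lymphatic endothelial-like, myeloid-like, endocardial-like, smooth muscle-like, lymphoid-like and cardiomyocyte-like. Ranges over the 6 libraries overlapped between all neighbours in this order, with the lowest class at 86.0 CPM on average (range 41.1 to 166) and the one above it at 164 CPM (range 92.0 to 273).

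Leaving out each library in turn gave 1.61 to 1.75 for R403Q-EMPA against R403Q-CD in cardiomyocyte-like, 1.76 to 1.94 in endothelial-like and 1.01 to 1.20 in fibroblast-like nuclei. It gave 0.48 to 0.98 in epicardial-like and 0.41 to 0.88 in lymphoid-like nuclei, where the lowest value was without R403Q-EMPA replicate 1. The lymphoid-like value was 1.07 without the mitochondrial filter and 1.03 with doublets kept. Within single clusters, both treated libraries were above all others in 4 of 4 cardiomyocyte-like, 5 of 5 fibroblast-like and 6 of 6 endothelial-like clusters, some of which were thin, with 7 and 2 WT-CD nuclei in one cardiomyocyte-like cluster.

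The make-up of the fibroblast-like and endothelial-like classes differed between libraries. The fibroblast-like cluster led by Ltbp2, Cilp and Postn held 634 of 3684 and 291 of 2580 nuclei in WT-CD hearts, 245 of 2382 and 244 of 1979 in R403Q-CD hearts, and 841 of 1661 and 489 of 1863 in R403Q-EMPA hearts. The fibroblast-like cluster led by Kcnip1 and Necab1 was smaller in treated hearts, with 1331 and 963, 922 and 708, and 214 and 529 nuclei. The endothelial-like cluster with Cxcl12 and Sox17 among its leading genes held 85 of 1700 and 185 of 2359, 243 of 2336 and 216 of 2072, and 798 of 2964 and 159 of 1343 nuclei, and so was largest in R403Q-EMPA replicate 1. The part of this make-up in the levels of either class was not tested.

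The summed CPM of 5 heat shock genes (Hspa1a, Hspa1b, Hsph1, Dnajb1 and Hspa8, cytosolic chaperones induced by protein stress) was highest where P4ha1 was. That sum was higher in both R403Q-EMPA libraries than in all others in 10 of 10 classes, with no gene of the list at 0. In cardiomyocyte-like nuclei the sum was 57.3 and 49.8 CPM in WT-CD hearts, 109 and 88.9 CPM in R403Q-CD hearts and 248 and 210 CPM in R403Q-EMPA hearts. In pericyte-like nuclei it was 105 and 102, 151.5 and 140, and 572 and 508.5 CPM. The sum did not follow P4ha1 throughout. In smooth muscle-like nuclei it was 401 and 133.5 CPM in the R403Q-CD libraries, where P4ha1 was 107 and 99.8 CPM. The part of the heat shock sum in the P4ha1 result was not tested. For 6 immediate early genes, which respond to tissue handling, the sum was higher in both treated libraries in 0 of 10 classes, as was that of 5 erythrocyte genes. In endocardial-like nuclei the immediate early sum was lower in both treated libraries (94.3 and 99.3 CPM) than in the other 4 (110.7 to 194.4 CPM).

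**Figure D2:**
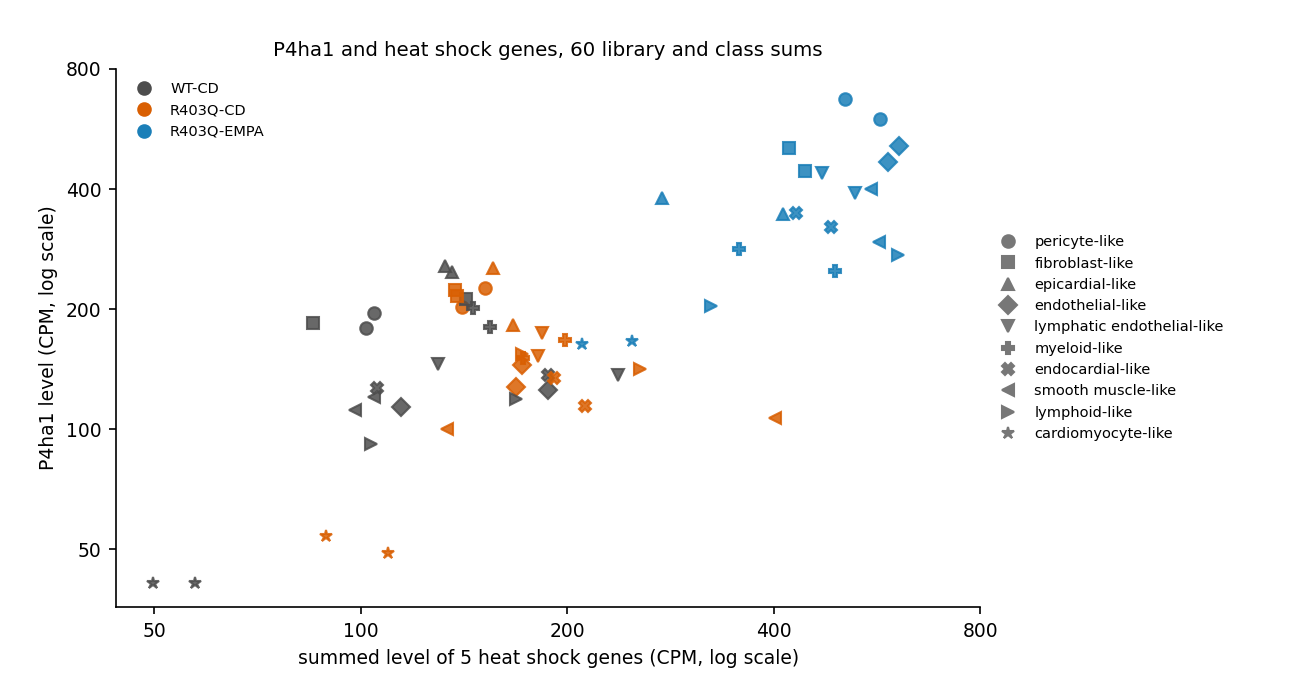
P4ha1 level against the summed level of 5 heat shock genes (both CPM, log scales), 1 point per library and class (60 points), coloured by group and shaped by class. Points of R403Q-EMPA lie to the upper right of the points of the same class in both other groups. The points share libraries and depth.

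Across the 60 library and class sums, the genes whose log2 levels followed P4ha1 most closely among 10455 genes were Chordc1 (Pearson r = 0.803), Dnaja1 (0.782), Hsp90ab1 (0.766), Naa16 (0.764) and Hsp90aa1 (0.762). Dnaja1 encodes a cochaperone of the HSP70 system, and the Hsp90 genes encode the cytosolic HSP90 chaperones. Hsp90aa1 and Hsp90ab1 are close paralogs that share sequence. No other gene of the hypoxia group was among the 5. With so few places among 10455 genes their absence says little, and their own r values were not compared.

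P4ha2 (ENSMUSG00000018906), the second catalytic subunit, passed the filter on low counts in 6 of 10 classes, and both R403Q-EMPA libraries were above all others in those 6. It was called in pericyte-like and endocardial-like nuclei. In pericyte-like nuclei P4ha2 stood at 15.4 and 13.6 CPM in WT-CD hearts, 16.5 and 11.6 CPM in R403Q-CD hearts and 42.6 and 36.3 CPM in R403Q-EMPA hearts, from 29 to 52 UMIs per library. It rose by 1.50 on the log2 scale (SE 0.27) in R403Q-EMPA against R403Q-CD (edgeR quasi-likelihood test, Benjamini-Hochberg adjusted p = 0.0149) in a class in which 0.613% of genes were called. Against WT-CD the increase was 1.44 (SE 0.26, edgeR adjusted p = 0.00844), with 1.69% of genes called. With doublets kept, the increase over R403Q-CD was not called. The call against R403Q-CD was lost without R403Q-CD replicate 1, R403Q-CD replicate 2 or R403Q-EMPA replicate 1 (difference 1.25 to 1.76, adjusted p up to 0.307 in edgeR). That against WT-CD was lost without R403Q-EMPA replicate 1 (1.32, edgeR adjusted p = 0.131). The heat shock sum of this class, given above, separated the same libraries. Summed markers of other classes did so too in pericyte-like nuclei. Those higher in the treated libraries were 10 cardiomyocyte genes with 3555 and 3222 CPM in treated libraries against 1664 to 3012 CPM in the others, and 10 endothelial genes with 496 and 385 against 247 to 363 CPM, none of them at 0. Those lower were 7 lymphatic endothelial genes, at 60.2 and 51.2 against 66.6 to 102 CPM, and 6 Schwann cell genes, at 5.02 and 5.97 against 6.66 to 14.1 CPM, 1 of them at 0. The 8 pericyte markers were also lower in the treated libraries, at 11190 and 10580 against 11630 to 13210 CPM. The part of these sums in the P4ha2 result was not tested.

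Endocardial-like nuclei had the highest mean P4ha2 level, 110 CPM. The libraries held 77.0 and 99.98 CPM in WT-CD hearts, 96.2 and 90.8 CPM in R403Q-CD hearts and 142 and 157 CPM in R403Q-EMPA hearts. P4ha2 rose by 0.75 (SE 0.17) in R403Q-EMPA against WT-CD (edgeR adjusted p = 0.0452, 2.35% of genes called in the class), and the difference from R403Q-CD was 0.67 (edgeR adjusted p = 0.118, 1.12% called). This call held in 1 of 6 fits that left out a library, the one without WT-CD replicate 2, with edgeR adjusted p up to 0.175 in the others and a difference of 0.57 to 0.96. It was also lost with DESeq2 (adjusted p = 0.111) and without the mitochondrial filter (edgeR adjusted p = 0.054). Several sums moved with it in this class. The 5 heat shock genes stood at 431.5 and 484 CPM in treated libraries against 106 to 212 CPM in the others. The 8 endocardial markers were lower, at 11040 and 13840 against 16330 to 18720 CPM, and the 7 lymphatic endothelial markers higher, at 357 and 282 against 147 to 266 CPM. The 8 pericyte markers were lower, at 82.8 and 93.3 against 107 to 214 CPM, with no gene of these lists at 0. Their part in the endocardial-like P4ha2 values was not tested.

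In the 3 largest classes edgeR made no call for P4ha2 at the settings used. Cardiomyocyte-like nuclei held 78.3 and 87.4 CPM in WT-CD hearts, 65.2 and 59.9 CPM in R403Q-CD hearts and 123 and 96.5 CPM in R403Q-EMPA hearts, a difference of 0.81 (SE 0.16) between treated and untreated R403Q hearts (edgeR adjusted p = 0.0844). That difference was called with DESeq2 (adjusted p = 0.00612), without the low-count filter (edgeR adjusted p = 0.000552) and in 2 of 6 fits that left out a library, those without WT-CD replicate 1 or 2 (edgeR adjusted p = 0.0409 and 0.0423). Endothelial-like nuclei held 72.6 and 106, 74.7 and 75.9, and 113 and 169 CPM, a difference of 0.89 (edgeR adjusted p = 0.177, 0.213% called) that DESeq2 called (adjusted p = 0.0268), as did edgeR without the low-count filter (adjusted p = 1.96e-05). Fibroblast-like nuclei held 40.6 and 40.7, 34.5 and 28.9, and 43.1 and 54.8 CPM, a difference of 0.62 (edgeR adjusted p = 0.164) called only without the low-count filter (edgeR adjusted p = 0.0199) among the alternatives run. All 6 fibroblast-like levels were below those of the cardiomyocyte-like and endothelial-like classes. Lymphatic endothelial-like nuclei held 15.7 and 21.1, 25.8 and 14.0, and 59.7 and 52.4 CPM, differing by 1.56 between R403Q-EMPA and R403Q-CD, with an edgeR adjusted p of 0.347 and 0.0449% of genes called in this class. It was called without WT-CD replicate 1 (edgeR adjusted p = 0.0317).

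Stc1 (ENSMUSG00000014813) encodes stanniocalcin 1, a secreted glycoprotein hormone. It passed the filter in 4 classes, of which 3 line vessels or the ventricle, and it had at most 50 UMIs over all 6 libraries in any of the other 6. Lymphatic endothelial-like nuclei held 15.7 and 14.1 CPM in WT-CD hearts, 45.6 and 40.7 CPM in R403Q-CD hearts and 73.8 and 61.7 CPM in R403Q-EMPA hearts, from 8 to 63 UMIs per library. The 3 groups did not overlap, and R403Q-CD lay between the others. Log2 differences were 1.50 (SE 0.36) for R403Q-CD against WT-CD, 0.69 (SE 0.30) for R403Q-EMPA against R403Q-CD and 2.19 (SE 0.34) for R403Q-EMPA against WT-CD.

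Endocardial-like nuclei showed the same order of Stc1. Levels were 20.8 and 29.6 CPM in WT-CD hearts, 30.2 and 51.1 CPM in R403Q-CD hearts and 60.3 and 70.7 CPM in R403Q-EMPA hearts. The untreated R403Q libraries were only just above wild type, with a log2 difference of 0.74 (SE 0.28) that ranged from 0.27 to 1.03 as single libraries were left out and was 0.27 without R403Q-CD replicate 2. R403Q-EMPA differed from WT-CD by 1.37 (SE 0.27). In endothelial-like nuclei, which had the highest mean (55.9 CPM), Stc1 stood at 43.8 and 54.8 CPM, 38.5 and 49.1 CPM, and 54.0 and 94.9 CPM, and the WT-CD and R403Q-EMPA libraries overlapped. The difference between R403Q-EMPA and R403Q-CD there was 0.73 (SE 0.26), and it was 0.30 without R403Q-EMPA replicate 2 and 0.39 without the mitochondrial filter.

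Of the 6 endothelial-like clusters, Stc1 was highest in the one with Col13a1 and Alk among its leading genes, and Stc1 itself was 1 of its 10 leading genes. Levels in that cluster were 132 and 149 CPM in WT-CD hearts, 151 and 183 CPM in R403Q-CD hearts and 181 and 332 CPM in R403Q-EMPA hearts. Pericyte-like nuclei were near the limit of measurement, at 2.59 to 6.26 CPM in all libraries. Leaving out single libraries changed the sign of R403Q-CD against WT-CD and of R403Q-EMPA against R403Q-CD. The difference of R403Q-EMPA from WT-CD stayed at -0.86 to -0.21, although it reached 0.18 under another alternative. The genes most like Stc1 over the 60 sums were Gm31416 (Pearson r = 0.893), Sncaip (0.871), Emcn (0.854), Kank3 (0.847) and Egfl7 (0.845). Emcn and Egfl7 are endothelial genes, and Emcn is among the markers used to name the classes.

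**Figure D3:**
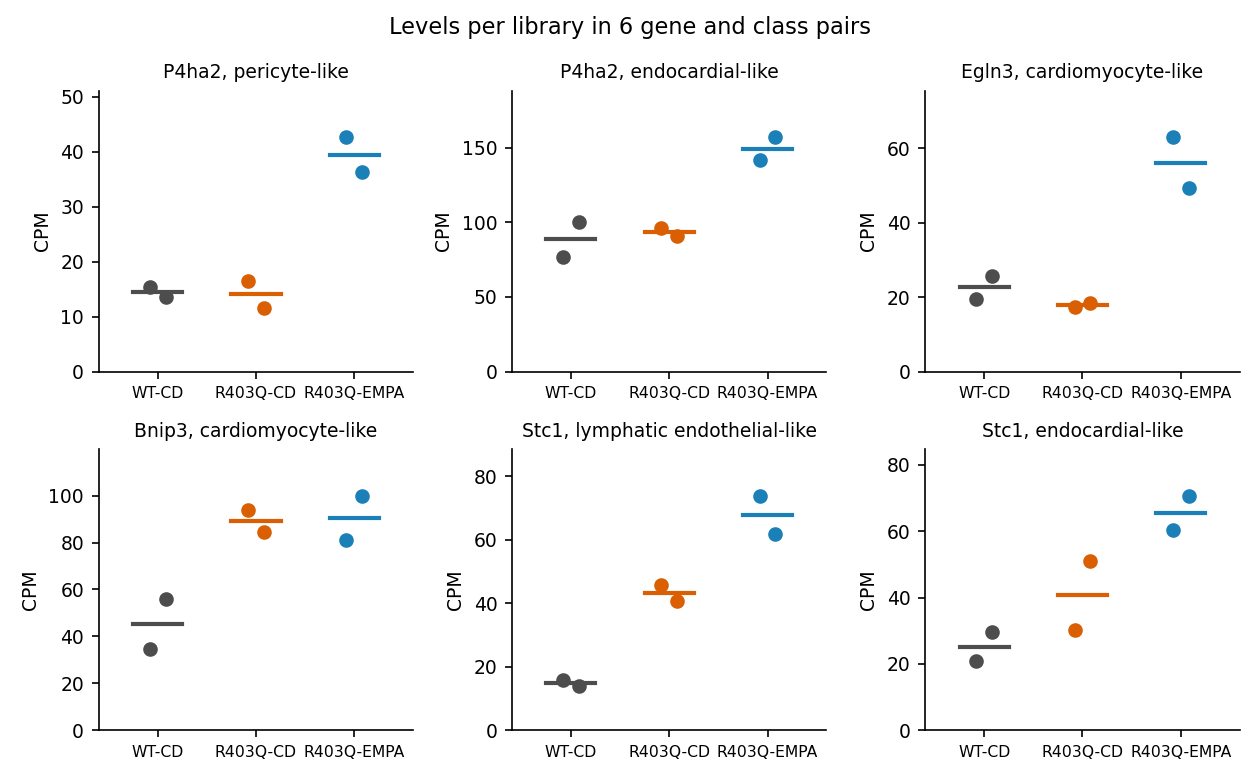
Level (CPM, from 0) of P4ha2, Egln3, Bnip3 and Stc1 in the classes named above each panel, 1 dot per library and a line for the mean of 2 libraries. P4ha2 in pericyte-like and Egln3 in cardiomyocyte-like nuclei separate R403Q-EMPA from both other groups, whereas Bnip3 in cardiomyocyte-like nuclei separates both R403Q groups from WT-CD.

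The 3 HIF alpha subunit genes gave 81 tests over classes and comparisons, of which edgeR called 0, with 5 at an unadjusted p under 0.05 and 1 called by DESeq2. Of all 99814 gene and class pairs, edgeR called 0.017%, 0.347% and 1.42% in the 3 comparisons. An unadjusted p under 0.05 was reached by 4345, 9756 and 12635 of them. Hif1a (ENSMUSG00000021109), the widely expressed subunit, was highest in cardiomyocyte-like nuclei with a mean of 209 CPM. Its levels there were 215 and 195 CPM in WT-CD hearts, 204 and 208 CPM in R403Q-CD hearts and 224 and 205 CPM in R403Q-EMPA hearts, so the groups overlapped within a narrow range. Endothelial-like nuclei held 132 and 99.7, 93.8 and 95.4, and 154 and 102 CPM. Fibroblast-like nuclei, the lowest of the 9 classes that passed the filter, held 69.1 and 61.1, 56.5 and 66.5, and 71.8 and 59.3 CPM.

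Epas1 (ENSMUSG00000024140), which encodes HIF-2 alpha and is known as an endothelial factor, was distributed differently over the classes. Endothelial-like nuclei averaged 903 CPM, endocardial-like 600 CPM and smooth muscle-like 504 CPM, against 55.5 CPM in cardiomyocyte-like and 23.2 CPM in myeloid-like nuclei. In endothelial-like nuclei the libraries held 652 and 1016 CPM in WT-CD hearts, 902 and 945 CPM in R403Q-CD hearts and 990 and 911 CPM in R403Q-EMPA hearts, with the widest spread inside the wild-type group. Fibroblast-like nuclei held 135 and 174, 147 and 153, and 136 and 130 CPM. In cardiomyocyte-like nuclei Epas1 stood at 59.5 and 80.6 CPM in WT-CD hearts, 49.6 and 59.1 CPM in R403Q-CD hearts and 43.7 and 40.7 CPM in R403Q-EMPA hearts. Both treated libraries were below all others, as in 14.6% of genes in this class, and the difference from WT-CD of -0.73 (SE 0.18) missed the threshold (edgeR adjusted p = 0.0523). It was called without WT-CD replicate 1 (-0.93, edgeR adjusted p = 0.0157), with DESeq2 (-0.74, adjusted p = 0.021) and without the low-count filter (-0.70, edgeR adjusted p = 0.00422). It was -0.49 without WT-CD replicate 2, -0.48 with doublets kept and -0.12 without the mitochondrial filter (edgeR adjusted p = 0.795).

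Hif3a (ENSMUSG00000004328), whose product can restrain the other HIF proteins, varied widely between the libraries of a group. Smooth muscle-like nuclei held 17.2 and 55.9, 142 and 41.6, and 16.9 and 118 CPM, from only 2 to 12 UMIs per library, and endocardial-like nuclei averaged 63.4 CPM from 72 to 195 UMIs per library. Fibroblast-like nuclei were tighter, with 34.5 and 42.0 CPM in WT-CD hearts, 46.2 and 36.8 CPM in R403Q-CD hearts and 23.6 and 25.8 CPM in R403Q-EMPA hearts. Both treated libraries were below the other 4, as in 14.7% of genes in this class, with a difference of -0.75 (SE 0.17) from R403Q-CD (edgeR adjusted p = 0.119, 0.338% called). It was called in an alternative fit with all 6 libraries (edgeR adjusted p as low as 0.00177). So was the difference of -0.64 from WT-CD (as low as 0.0155 in edgeR). In pericyte-like nuclei R403Q-CD differed from WT-CD by 0.74 (SE 0.27, edgeR adjusted p = 0.999), and by 0.29 to 1.39 as single libraries were left out. Cardiomyocyte-like nuclei held 14.8 and 23.6, 19.4 and 22.9, and 9.88 and 20.2 CPM. Endothelial-like nuclei held 9.22 and 23.9, 15.5 and 16.9, and 9.73 and 19.9 CPM. In both of these classes replicate 1 of WT-CD and of R403Q-EMPA lay below the rest.

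**Figure D4:**
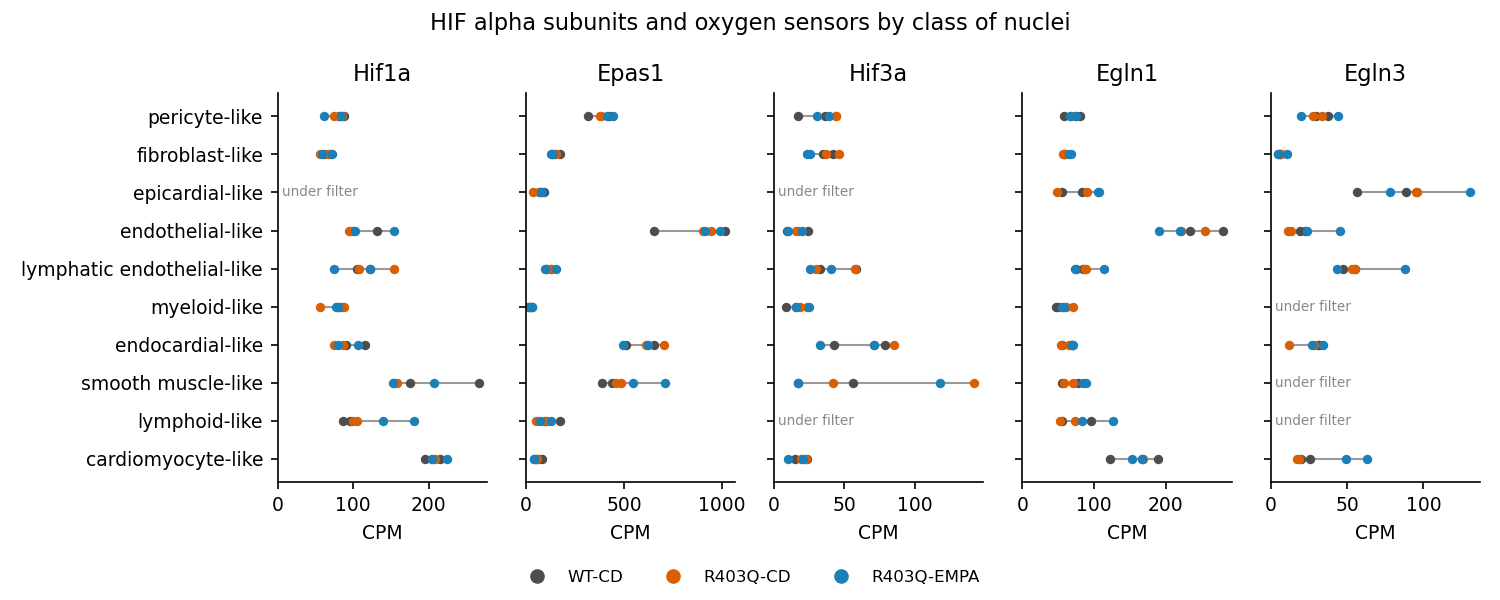
Levels (CPM) of Hif1a, Epas1, Hif3a, Egln1 and Egln3 by class of nuclei, 1 dot per library coloured by group, with a grey line over the range. Hif1a is highest in cardiomyocyte-like nuclei (mean 209 CPM), Epas1 and Egln1 in endothelial-like nuclei (903 and 234 CPM), and Egln3 in epicardial-like nuclei (90.8 CPM).

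Egln1 (ENSMUSG00000031987), the main HIF hydroxylase in most tissues, was highest in endothelial-like nuclei. It stood there at 280 and 234 CPM in WT-CD hearts, 255 and 221 CPM in R403Q-CD hearts and 191 and 220 CPM in R403Q-EMPA hearts. Cardiomyocyte-like nuclei held 122 and 190, 167 and 168, and 167 and 153 CPM. Fibroblast-like nuclei held 59.7 and 58.5, 57.4 and 58.5, and 68.4 and 64.7 CPM. Egln1 was called in 0 of 30 tests over classes and comparisons by edgeR, with 0 at an unadjusted p under 0.05 and 0 called by DESeq2. The edgeR shares over all gene and class pairs were 0.017%, 0.347% and 1.42% in the 3 comparisons.

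Egln3 (ENSMUSG00000035105), itself a well known HIF target, rose in cardiomyocyte-like nuclei of treated R403Q hearts. Levels were 19.6 and 25.6 CPM in WT-CD hearts, 17.4 and 18.4 CPM in R403Q-CD hearts and 62.9 and 49.2 CPM in R403Q-EMPA hearts, from 171 to 942 UMIs per library. Neither untreated group reached the treated range. The increase was 1.65 on the log2 scale (SE 0.19) against R403Q-CD (edgeR adjusted p = 0.0198), a comparison in which 0.251% of cardiomyocyte-like genes were called. Against WT-CD it was 1.31 (SE 0.19, edgeR adjusted p = 0.00721), with 3.99% called.

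The size of the Egln3 increase held when single libraries were left out, at 1.46 to 1.81 against R403Q-CD. The call was lost without R403Q-CD replicate 1, R403Q-CD replicate 2 or R403Q-EMPA replicate 1 (edgeR adjusted p up to 0.15). Against WT-CD the increase was 1.13 without R403Q-EMPA replicate 1, and the call was lost there as well (edgeR adjusted p = 0.0503). The cardiomyocyte-like class was made up differently in the groups. One of its 4 clusters held 78.2% and 70.5% of its nuclei in WT-CD hearts, 49.0% and 34.0% in R403Q-CD hearts and 10.1% and 25.5% in R403Q-EMPA hearts. Within that cluster Egln3 stood at 22.4 and 24.3 CPM, 17.4 and 27.5 CPM, and 92.3 and 64.7 CPM. A second cluster, whose share was higher in both R403Q groups, with 15.3% and 18.9%, 34.4% and 36.4%, and 45.4% and 48.8% of the nuclei, held 15.9 and 23.3, 16.4 and 13.4, and 65.2 and 48.4 CPM. Both treated libraries were also highest in the other 2 clusters, one of which had 7 and 2 nuclei in WT-CD hearts. The heat shock sum of cardiomyocyte-like nuclei given above was also highest in the treated libraries. Their mean mitochondrial share was higher too, at 1.63% and 1.54% against 1.17% to 1.47% in the other libraries. Of the summed markers of other classes, 10 endothelial genes stood at 172.5 and 127 CPM in the treated libraries against 86.9 to 123 CPM in the others and were the only such sum to be higher. Lower in both treated libraries were the sums of 7 smooth muscle genes (430.3 and 410.3 against 555 to 583 CPM), 8 endocardial genes (636 and 642 against 655 to 750.3 CPM), 8 pericyte genes (271 and 324.5 against 338 to 356 CPM), 7 lymphatic endothelial genes (141 and 117 against 145 to 182 CPM) and 6 Schwann cell genes (5.05 and 6.06 against 7.25 to 9.575 CPM), with no gene of these lists at 0. The part of these sums and of the mitochondrial share in the Egln3 result was not tested.

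In no other class was Egln3 called with edgeR at the settings used. Endothelial-like nuclei held 19.6 and 22.2 CPM in WT-CD hearts, 13.4 and 11.1 CPM in R403Q-CD hearts and 45.5 and 23.8 CPM in R403Q-EMPA hearts, a difference of 1.56 (SE 0.28) between treated and untreated R403Q hearts (edgeR adjusted p = 0.0784). It was 0.96 without R403Q-EMPA replicate 1 (edgeR adjusted p = 0.49). It was called in 3 of 6 fits that left out a library, those without WT-CD replicate 1 (edgeR adjusted p = 0.0388), WT-CD replicate 2 (0.0411) or R403Q-EMPA replicate 2 (0.0172), and also with DESeq2 (adjusted p = 0.00134) and without the low-count filter (edgeR adjusted p = 7.97e-11). The summed CPM of 10 cardiomyocyte marker genes, none at 0, was 2589 and 1869, 3091 and 3074, and 3379 and 3134 in this class and 55120 to 67840 in cardiomyocyte-like nuclei, and its part in the endothelial values was not tested. The highest Egln3 mean, 90.8 CPM, was in epicardial-like nuclei, with 56.5 and 88.4, 96.1 and 95.1, and 77.9 and 131 CPM. In fibroblast-like nuclei Egln3 was low, at 6.29 and 6.34, 6.69 and 4.61, and 11.0 and 4.96 CPM, with the groups overlapping.

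Bnip3 (ENSMUSG00000078566), which encodes an outer mitochondrial membrane protein that promotes removal of mitochondria (mitophagy), was highest in cardiomyocyte-like nuclei. Levels were 34.6 and 55.9 CPM in WT-CD hearts, 93.9 and 84.5 CPM in R403Q-CD hearts and 81.1 and 99.9 CPM in R403Q-EMPA hearts. All 4 R403Q libraries were above both wild-type libraries, and treated and untreated R403Q hearts overlapped. Both sums named above also separated the R403Q libraries from WT-CD in this class. The immediate early sum was 16.25 and 8.88 CPM in WT-CD hearts, 34.3 and 41.2 CPM in R403Q-CD hearts and 31.0 and 20 CPM in R403Q-EMPA hearts, with no gene of the list at 0. Of its genes, Atf3 was called in R403Q-CD against WT-CD (2.55, edgeR adjusted p = 0.014) and in R403Q-EMPA against WT-CD (1.52, edgeR adjusted p = 0.0109). The heat shock sum was 57.3 and 49.8 CPM in WT-CD hearts and 88.9 to 248 CPM in R403Q hearts, with no gene at 0. Markers of other classes separated the 4 R403Q libraries from WT-CD as well, with 10 fibroblast genes at 1506 and 1455 CPM in WT-CD hearts against 983 to 1226 CPM, 7 lymphatic endothelial genes at 182 and 168 against 117 to 154 CPM, 6 Schwann cell genes at 8.95 and 9.575 against 5.05 to 7.70 CPM, and 7 adipocyte genes at 501 and 512 against 520.0 to 584 CPM. The part of these sums in the Bnip3 values was not tested. Bnip3 rose by 1.00 (SE 0.22) in R403Q-EMPA against WT-CD (edgeR adjusted p = 0.037). Against WT-CD, the difference of the untreated R403Q hearts was 0.98 (SE 0.22), with an edgeR adjusted p of 0.207 in a comparison with 0.0905% of genes called. That difference was called with DESeq2 (adjusted p = 0.0111), without the low-count filter (edgeR adjusted p = 2.09e-05) and, of 6 fits that left out a library, in the one without WT-CD replicate 2 (1.37, edgeR adjusted p = 0.0406). R403Q-EMPA and R403Q-CD differed by 0.02 (SE 0.21, edgeR adjusted p = 0.979).

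The Bnip3 call held in 1 of 6 fits that left out a library, the one without WT-CD replicate 2, with edgeR adjusted p up to 0.151 in the others and a difference of 0.69 to 1.39. In the cluster that held most WT-CD cardiomyocyte-like nuclei, Bnip3 stood at 35.8 and 50.9, 92.0 and 98.5, and 66.6 and 99.1 CPM. In the second cluster it stood at 39.3 and 52.2, 92.8 and 80.3, and 82.1 and 109 CPM. All 4 R403Q libraries were above both wild-type libraries inside both clusters. Endothelial-like nuclei held 21.6 and 39.9 CPM in WT-CD hearts, 32.9 and 41.6 CPM in R403Q-CD hearts and 78.8 and 52.2 CPM in R403Q-EMPA hearts, a difference of 1.09 (SE 0.29) between R403Q-EMPA and WT-CD (edgeR adjusted p = 0.15, 0.822% called). It was called with DESeq2 (adjusted p = 0.0283), without the low-count filter (edgeR adjusted p = 3.24e-07) and without WT-CD replicate 2 (1.64, edgeR adjusted p = 0.0392). Fibroblast-like nuclei held 9.35 and 9.94, 11.7 and 13.2, and 16.3 and 15.7 CPM.

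Ankrd37 (ENSMUSG00000050914), a small ankyrin repeat gene used as a marker of HIF-1 activity, was called in 0 of 18 tests by edgeR, with 2 at an unadjusted p under 0.05 and 0 called by DESeq2. Over all gene and class pairs, edgeR called 0.017%, 0.347% and 1.42% in the 3 comparisons. It was highest in endothelial-like nuclei, at 66.5 and 37.7 CPM in WT-CD hearts, 33.2 and 29.3 CPM in R403Q-CD hearts and 54.3 and 49.9 CPM in R403Q-EMPA hearts. R403Q-CD was below both other groups, which overlapped. R403Q-EMPA differed from R403Q-CD by 0.74 (SE 0.24, edgeR adjusted p = 0.319, 0.213% of genes called), and by 0.65 to 0.84 as single libraries were left out. Some alternative fits called this difference. R403Q-CD differed from WT-CD by -0.72 (SE 0.24), and by -1.09 to -0.28 as single libraries were left out. It was called in an alternative fit with all 6 libraries (edgeR adjusted p as low as 0.0305). Fibroblast-like nuclei held 5.42 and 3.03, 2.96 and 4.71, and 5.12 and 4.17 CPM. Cardiomyocyte-like nuclei held 0.69 to 2.69 CPM, from 8 to 36 UMIs per library, with edgeR adjusted p of 0.78 to 0.914.

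**Figure D5:**
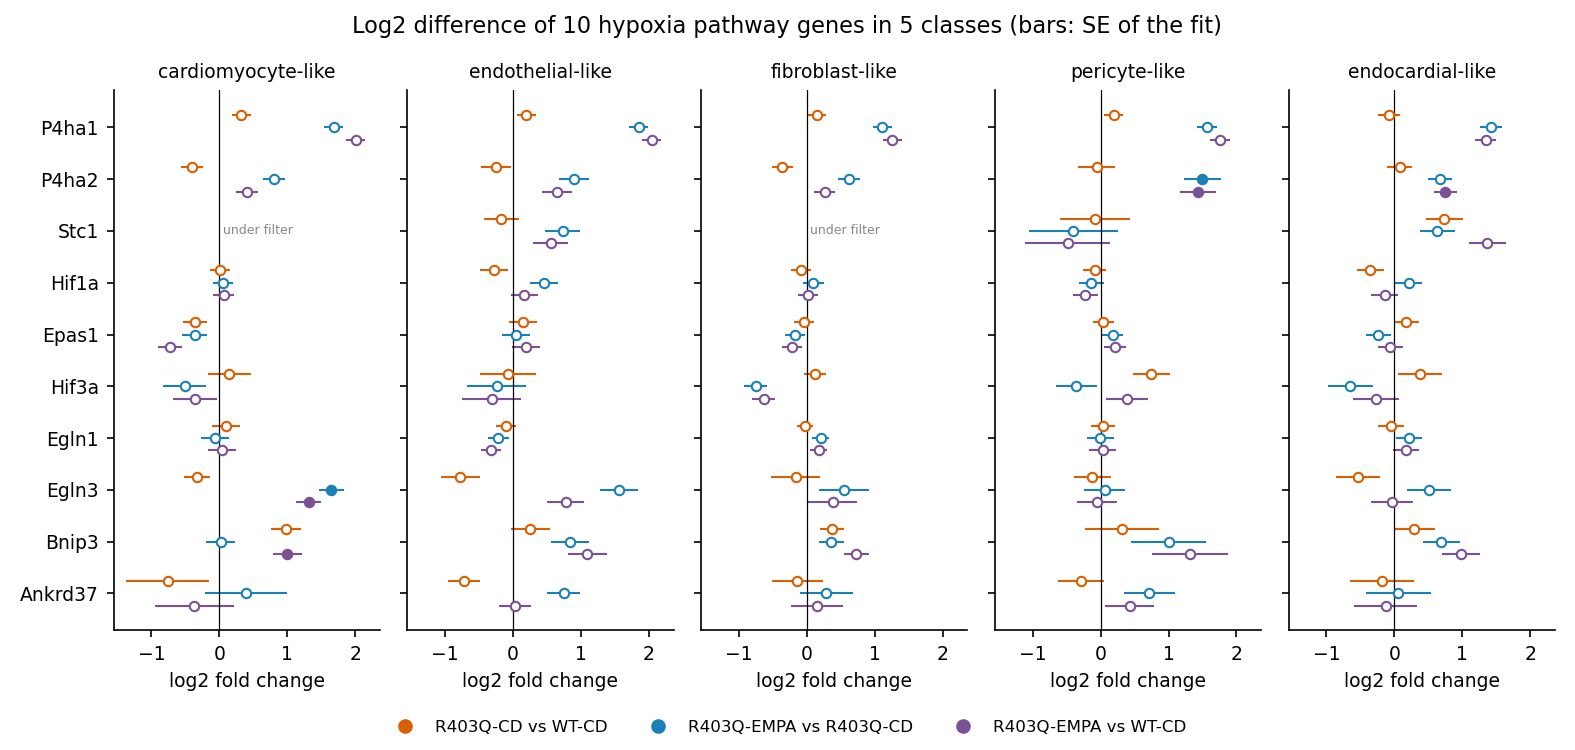
Log2 difference with its SE for the 10 genes in 5 classes and the 3 comparisons. Filled points passed the edgeR test at adjusted p under 0.05 and open points did not, with P4ha1 and Stc1 drawn open because they were not tested. P4ha1 lies to the right of 0 in every class for R403Q-EMPA against either group, whereas no point of Hif1a, Epas1, Hif3a or Egln1 is filled.

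Counted over classes, 77 of 100 gene and class pairs of the 10 genes passed the filter, and 63 of these belonged to the 8 tested genes. For R403Q-CD against WT-CD, edgeR called 0 of 63, with 5 at an unadjusted p under 0.05 and 1 called by DESeq2, where 0.017% of all pairs were called. For R403Q-EMPA against R403Q-CD it called 2 of 63, both higher, with 0.347% of all pairs called. For R403Q-EMPA against WT-CD it called 4 of 63, all higher, with 1.42% of all pairs called. The median log2 difference over the 63 pairs was -0.03, 0.21 and 0.17 in the 3 comparisons, and 30, 45 and 43 of the pairs were above 0. Both treated libraries were above all others in 10 of 10 classes for P4ha1, 6 of 6 for P4ha2, 2 of 4 for Stc1, 3 of 7 for Bnip3, 4 of 10 for Egln1, 2 of 7 for Egln3, 1 of 9 for Hif1a, 1 of 10 for Epas1, 0 of 8 for Hif3a and 0 of 6 for Ankrd37. Both were below all others in 1 class each for Epas1, Hif3a and Egln1. Over all pairs, both were above in 11.9% and below in 12.1%.

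A further 62 genes of the hypoxia pathway were listed by role, and 58 of them passed the filter in at least 1 class. For R403Q-CD against WT-CD, edgeR called 0 pairs, with 26 at an unadjusted p under 0.05 and 0 called by DESeq2. For R403Q-EMPA against R403Q-CD it called 1 pair, Plod1 in pericyte-like nuclei, or 0.248% of the pairs of the list against 0.347% of all pairs. For R403Q-EMPA against WT-CD it called 13 pairs, 11 higher and 2 lower, or 3.23% of the pairs of the list against 1.42% of all pairs. The median log2 difference over all pairs of the list was 0.00, 0.13 and 0.13 in the 3 comparisons.

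Collagen-processing genes made up 6 of the 13 calls against wild type, from 41 pairs, where 1.42% of all pairs were called. Plod1 and Plod2 encode lysyl hydroxylases, which modify procollagen in the same compartment as the P4HA subunits. Plod1 in pericyte-like nuclei stood at 31.2 and 34.8 CPM in WT-CD hearts, 46.5 and 33.1 CPM in R403Q-CD hearts and 73.7 and 103 CPM in R403Q-EMPA hearts. It rose there by 1.15 (SE 0.22) against R403Q-CD (edgeR adjusted p = 0.0217) and by 1.42 against WT-CD (edgeR adjusted p = 0.00248). The list had 0 calls against R403Q-CD without R403Q-CD replicate 1, without R403Q-CD replicate 2 or with doublets kept, so the Plod1 call was lost there. Against WT-CD, Plod1 also rose by 0.84 in cardiomyocyte-like nuclei (edgeR adjusted p = 0.0159) and by 0.76 in fibroblast-like nuclei (edgeR adjusted p = 0.0414). Plod2 rose by 0.98 in pericyte-like nuclei (edgeR adjusted p = 0.00975) and by 1.14 in endothelial-like nuclei (edgeR adjusted p = 0.0363), where it stood at 98.0 and 137, 131 and 130, and 229 and 294 CPM. Lox, which crosslinks collagen outside the cell, rose by 1.09 in fibroblast-like nuclei (edgeR adjusted p = 0.0414), from 10.7 and 7.95 CPM in WT-CD to 20.3 and 19.2 CPM in R403Q-EMPA. Cluster make-up of the fibroblast-like and endothelial-like classes and the heat shock and marker sums of pericyte-like nuclei, all given above, moved with these comparisons. So did the cluster shares and the heat shock and marker sums of cardiomyocyte-like nuclei. In fibroblast-like nuclei the heat shock sum was higher in both treated libraries (444 and 421 against 85.2 to 142 CPM). The sum of 6 Schwann cell genes was lower there (104 and 179 against 225 to 261.5 CPM). So was that of 7 adipocyte genes (42.8 and 40.9 against 44.4 to 53.7 CPM). In endothelial-like nuclei the heat shock sum was higher in both treated libraries (586 and 608 against 114 to 188 CPM). Also higher were 10 cardiomyocyte genes (3379 and 3134 against 1869 to 3091 CPM) and 7 epicardial genes (161 and 174 against 106 to 152 CPM). Lower were 7 smooth muscle genes (159 and 168 against 177 to 193.5 CPM). So were 6 Schwann cell genes (2.47 and 3.89 against 4.04 to 5.95 CPM) and 8 lymphoid genes (2.37 and 4.22 against 4.23 to 5.48 CPM). Their part in the calls of the 4 classes was not tested.

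Other roles held fewer calls against wild type. In that comparison 1.23% of fibroblast-like and 0.527% of myeloid-like genes were called over the whole table, and myeloid-like shares were 0.0925% for R403Q-EMPA against R403Q-CD and 0.00925% for R403Q-CD against WT-CD. Ddit4, which encodes an inhibitor of mTORC1 that is induced by hypoxia and other stresses, rose in cardiomyocyte-like (1.57, edgeR adjusted p = 0.0157), fibroblast-like (1.39, edgeR adjusted p = 0.0157) and myeloid-like nuclei (2.23, edgeR adjusted p = 0.0283). The heat shock sum separated the same libraries in each of these classes, with 248 and 210 CPM in treated libraries against 49.8 to 109 CPM in cardiomyocyte-like, 444 and 421 against 85.2 to 142 CPM in fibroblast-like, and 492 and 355 against 145.5 to 198.5 CPM in myeloid-like nuclei. Its part in the calls of these classes, and that of the cluster shares and marker sums given above, was not tested. Mxi1, a MYC antagonist, rose by 1.11 in myeloid-like nuclei (edgeR adjusted p = 0.0237). In that class both treated libraries were lowest for the sums of 8 myeloid markers (13350 and 14530 against 14910 to 17290 CPM) and 8 lymphoid markers (483 and 1065 against 1125 to 1507 CPM, 1 gene at 0), whose part in the myeloid-like calls was not tested. Of the glucose uptake and glycolysis genes, with 108 pairs, Pgam1 rose by 0.91 in cardiomyocyte-like nuclei (edgeR adjusted p = 0.0224), although its near-identical copies make its counts uncertain. Pfkfb3, which drives glycolytic flux, was lower by -1.20 in fibroblast-like nuclei (edgeR adjusted p = 0.0154), at 38.8 and 46.9, 27.1 and 28.9, and 18.7 and 18.7 CPM. Stc2, the paralog of Stc1, was lower by -0.98 in cardiomyocyte-like nuclei (edgeR adjusted p = 0.037). Of the 53 pairs of oxygen sensor and HIF degradation genes, edgeR called 0, with 1 at an unadjusted p under 0.05 and 0 called by DESeq2. Of the 59 pairs of chromatin, iron and other targets it called 0, with 9 at an unadjusted p under 0.05 and 0 called by DESeq2.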

How the data were processed

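Single-nucleus libraries were prepared from fresh frozen left ventricle with 10x Genomics 3′ chemistry. The deposited tables hold raw UMI counts per gene and barcode, made by the authors with Cell Ranger 8.0.1 on GRCm39, per the file headers and the submitters' processing notes, without normalisation. Whether intronic reads were counted is not given in the sources used here. The study's methods give around 10000 nuclei captured per library, beside 10032 to 13110 barcodes in the deposited tables. The labels also name a diet too long for these ages, and no length of treatment is given here.

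Barcodes with at least 500 UMIs, 300 genes and at most 5% mitochondrial UMIs were kept. Predicted doublets (3.68% to 6.45%) were removed with scrublet in scanpy 1.11.5. Clustering used 2000 variable genes, 30 principal components, 15 neighbours and the Leiden method at resolution 1 (Python 3.11.15, igraph 0.11.9). A cluster took a class name when at least 3 of its markers were enriched 2-fold and seen in 10% of its nuclei. This scoring rule was chosen after seeing the data. One cluster of 41 nuclei, led by hemoglobin genes, stayed unnamed, and 61 Schwann-like nuclei were too few to test.

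Sums of UMI counts per library and class were fitted in edgeR 4.0.16 (R 4.3.3) after filterByExpr and TMM scaling, with all 6 libraries in each fit and quasi-likelihood F tests. Benjamini-Hochberg adjustment covered all genes of a class and comparison, and an adjusted p under 0.05 made a call. The step was tested on simulated data. DESeq2 1.42.0, no filter on low counts, no mitochondrial filter, doublets kept, Leiden resolution 0.5 and leaving out each library were tried as alternatives. Replicate numbers follow the order of deposit and pair nothing across groups.

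The 10 genes, the pathway list and the heat shock, immediate early, erythrocyte and class marker lists were chosen with earlier results of these data known. Values per library are given in the class with the highest mean, in cardiomyocyte-like, fibroblast-like and endothelial-like nuclei and wherever a gene was called, with further classes for P4ha1, P4ha2 and Stc1. Called genes of the pathway list and the 5 genes most correlated with P4ha1 or Stc1 (log2 CPM, prior count 2, mean of at least 10 CPM) are named.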

Additional observations from a re-analysis of the deposited data

Results flagged for a closer look

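Egln1 lay in opposite directions in 2 of the 10 classes, with both R403Q-EMPA libraries above all 4 others in fibroblast-like nuclei and below all 4 in endothelial-like nuclei. The endothelial-like separation was narrow, with 219.9 CPM in R403Q-EMPA replicate 2 against 221.1 CPM in R403Q-CD replicate 2. Both treated libraries were also above all others in endocardial-like, smooth muscle-like and epicardial-like nuclei. The log2 difference between R403Q-EMPA and R403Q-CD was 0.20 in fibroblast-like and -0.22 in endothelial-like nuclei. Against WT-CD it was 0.17 and -0.33. None of these values was called by edgeR or had an unadjusted p under 0.05, and the difference between the classes was not tested. Non-overlap above the others occurred in 13.7% of fibroblast-like genes and below the others in 12.4% of endothelial-like genes.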

How the results depend on the processing

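No paired analysis was possible because the replicate numbers follow the order of deposit and pair no libraries. No value for the 10 genes reversed where it was called. The next tallies cover only values of the tested genes with an unadjusted edgeR p under 0.05, most of which were not called at the settings used. A kept side there mostly means an uncalled value that stayed uncalled, and only the few called values could lose a call. Under alternatives other than leaving out a library, 132 kept their side of the threshold, 25 became calls and 3 lost the call. With a library left out, 159 kept it, 15 became calls and 18 lost it. Counts of called gene and class pairs depended more on the settings, and the cause was not tested. For R403Q-CD against WT-CD, the tested genes gave 0 calls, but 2 without the low-count filter, 1 with DESeq2 and 0 to 2 with a library left out. The pathway list gave 0, but 7 without the low-count filter, 5 without the mitochondrial filter and 0 to 1 with a library left out. The whole table gave 17, but 794 without the low-count filter, 125 with DESeq2, 499 without the mitochondrial filter, 45 with doublets kept and 13 to 123 with a library left out. For R403Q-EMPA against R403Q-CD, the tested genes gave 2 calls, but 10 without the low-count filter, 5 with DESeq2, 1 with doublets kept (P4ha2 in pericyte-like nuclei then had an edgeR adjusted p of 0.0529) and 0 to 7 with a library left out. It was 0 without R403Q-CD replicate 1 or 2 or R403Q-EMPA replicate 1, and 7 and 6 without WT-CD replicates 1 and 2. The pathway list gave 1, but 31 without the low-count filter, 13 with DESeq2, 0 with doublets kept and 0 to 13 with a library left out. The whole table gave 346, but 3373 without the low-count filter, 884 with DESeq2, 188 without the mitochondrial filter and 46 to 1255 with a library left out. For R403Q-EMPA against WT-CD, the tested genes gave 4 calls, but 12 without the low-count filter and 0 to 7 with a library left out, 0 being without R403Q-EMPA replicate 1. The pathway list gave 13, but 39 without the low-count filter, 21 with DESeq2 and 4 to 35 with a library left out, the lowest without R403Q-EMPA replicate 1 and the highest without WT-CD replicate 1. The whole table gave 1418, but 5170 without the low-count filter and 369 to 3044 with a library left out. P4ha2 in endocardial-like nuclei against WT-CD was not called with DESeq2 (adjusted p = 0.111) or without the mitochondrial filter (edgeR adjusted p = 0.054). With 2 libraries per group, each spread rests on few values, and P4ha2 in pericyte-like and Stc1 in lymphatic endothelial-like nuclei rest on 29 to 52 and 8 to 63 UMIs per library.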
